A study of Mus musculus with 10 samples.

Results

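Chromatin loops that were called in macrophages never exposed to IL-4, and in none of the cells that had received it, are described here. They were chosen by their presence in 5 loop lists, 1 list per group. A loop had to be on an autosome in the untreated M0[CTR] list, to have a partner in the IFNG list with both anchors at most 20 kb (2 bins) away, and to have no such partner in the M2[IL-4], M2p[pIL-4] or pIL-4 + IFNG list. The rule found 317 of the 53273 autosomal M0[CTR] loops (0.595%). Since presence in the lists made the choice, that number and the contact counts of these loops are given as a description, with no test.

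The Hi-C samples were 10 cultures of bone marrow-derived macrophages (BMDMs) from wild-type female C57BL/6 mice aged 2 to 3 months, differentiated in M-CSF at 20 ng/ml, with 2 replicates in each of 5 groups. M0[CTR] cells were left untreated on day 6. IL-4 at 20 ng/ml for 24 h made the M2[IL-4] group, and washing followed by a rest of 24 h made the M2p[pIL-4] group. In the IFNG group, 20 ng/ml of that cytokine acted for 3 h on cells without IL-4, and in the pIL-4 + IFNG group on cells that had gone through IL-4, washing and rest. Because each list stood for both replicates of its group, no difference between groups could be tested against the spread between replicates.

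In Hi-C, DNA that is in contact in the nucleus is cut, joined and sequenced, and a loop is a pair of segments (its anchors) joined more often than their surroundings. Many loops form where the cohesin ring extrudes chromatin until it meets a pair of CTCF proteins bound in facing (convergent) orientation, and others join promoters to enhancers. IL-4 acts through the transcription factor STAT6 and moves macrophages towards the alternatively activated state, whereas IFNG moves them towards the inflammatory state.

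Beside the 53273 autosomal M0[CTR] loops, the IFNG list held 54869, the M2[IL-4] list 58117, the pIL-4 + IFNG list 66827 and the M2p[pIL-4] list 67532. The lists of the 2 groups without IL-4 were therefore the shortest. Each loop was a pair of 10 kb bins with a whole-number count of contacts, from 5 upwards, and the median count was 32 in every list. A list gives only the pairs that were called, so a loop absent from a list may still have had contacts there, and its count there is not known. The contacts of all called loops summed to 2174945 for M0[CTR], the lowest, and 2787117 for M2p[pIL-4], the highest, and these sums are not the depth of the libraries. No expression values were used here, so the identity of the cells was not checked against marker genes.

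An exact match to the 14-base CTCF core consensus was in at least 1 anchor of 100 of the 317 loops (31.5%, Wilson 95% interval 26.7 to 36.9), against 43.0% of the 43218 M0[CTR] loops that were matched in all 5 lists. Other loops found in few lists had low shares as well. It was 26.2% in M0[CTR] loops shared with M2[IL-4] alone, 30.5% with pIL-4 + IFNG alone and 30.6% with M2p[pIL-4] alone. In loops of M0[CTR] alone it was 27.2%. These shares were pooled over all spans, and the 317 loops were mostly longer than those in all 5 lists. At 500 kb or more, 24% (17.36 to 32.19) of the chosen loops had such a match, against 37.92% of those in all 5 lists. At 30 to 490 kb the share was 37.93% (31.06 to 45.33), and this interval held the 44.07% of loops in all 5 lists. At 10 to 20 kb it was 22.22% against 35.48%, which lay within the wide interval of the chosen loops. A convergent pair of exact matches, with the motif on the forward strand at the first anchor and on the reverse strand at the second, was found in 8 of the 317 loops. Of these 8, 3 are shown, chosen after the matches were seen, because they place facing CTCF motifs at the 2 ends of a loop that the IL-4 lists lacked. The first joined Anks1 to Scube3 (36 contacts in M0[CTR] and 32 in IFNG). The second lay between Trim29 and Nectin1 (15 and 15) and the last between Hs2st1 and Sh3glb1 (13 and 16). At their spans of 180, 480 and 270 kb the median M0[CTR] counts were 30, 16 and 24, so the last was weak. The IFNG partner of the first was 10 kb off, and its first anchor bin did not hold the motif shown. At Nectin1 the nearest loop of an IL-4 list was 400 kb away, and at Sh3glb1 it was 110 kb away. The sequences were read from GRCm38, 5′ to 3′ on the strand of the motif, with the consensus match in capitals.
Anks1 anchor, chr17:27989949-27989978, forward strand: ggtgtcgcCCGGTAGGGGGCGCtggtgcct
Scube3 anchor, chr17:28163857-28163886, reverse strand: atgtctggCCAGCAGAGGGCGCcacacacc
Nectin1 first anchor, chr9:43346858-43346887, forward strand: gtcgatgtCCTCCAGAGGGCAGaaccaggg
Nectin1 second anchor, chr9:43827828-43827857, reverse strand: ctcaccttCCACCAGGGGGCGCtcttgtcc
Hs2st1 anchor, chr3:144453807-144453836, forward strand: ttttatgaCCACTAGAGGGCAGtaaagcac
Sh3glb1 anchor, chr3:144723641-144723670, reverse strand: aggcactgCCAGAAGAGGGCAGtcaaagca

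A match is a description of the letters and does not show that CTCF was bound. Exact convergent pairs were at 2.52% of the 317 loops (1.28 to 4.90) and at 3.64% of the loops in all 5 lists (3.47 to 3.83), so the intervals, which cover counting error only, overlapped.

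The question behind the choice was whether a set of loops was shared by the 2 groups without IL-4 and missing after it. Being shared with the IFNG list alone was the least frequent of the 4 ways in which an M0[CTR] loop could be matched in just 1 other list. M0[CTR] shared 416 loops with M2[IL-4] alone, 489 with pIL-4 + IFNG alone and 575 with M2p[pIL-4] alone, against the 317 shared with IFNG alone. A further 1911 M0[CTR] loops had no match in any other list. Of the 2228 M0[CTR] loops that all 3 IL-4 lists lacked, 14.2% (12.8 to 15.7) were matched in IFNG. The same share, for loops lacking in the other three lists, was 17.9% for M2[IL-4], 20.4% for pIL-4 + IFNG and 23.1% for M2p[pIL-4]. Per 1000 autosomal loops of the second list, the numbers were 5.78 for IFNG, 7.16 for M2[IL-4], 7.32 for pIL-4 + IFNG and 8.51 for M2p[pIL-4]. The order changed when the lists were cut by strength (defined below) to the length of the shortest, the M0[CTR] list. That list, with 53424 loops over all chromosomes, kept every call. The others lost their weakest calls, from 55012 loops in IFNG, 58260 in M2[IL-4], 67000 in pIL-4 + IFNG and 67728 in M2p[pIL-4]. Weak partners were thus removed least from IFNG and more from the IL-4 lists. Then IFNG alone gave 584 loops, M2[IL-4] 568, M2p[pIL-4] 545 and pIL-4 + IFNG 463, so that IFNG changed from the lowest of the 4 to the highest, and the cause was not tested. The number also turned on the match distance: 1846 loops met the rule when partners had to be in the same bins and 157 when they could be 50 kb off.

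**Figure D1:**
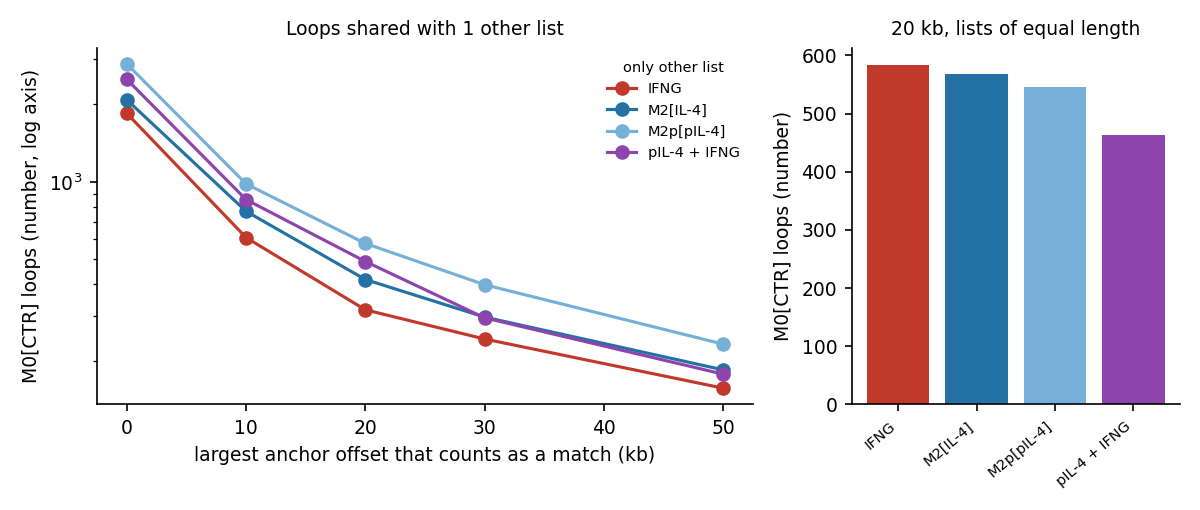
The left panel plots the number of M0[CTR] loops matched in only 1 other list (log axis) against the anchor offset that counted as a match. The right panel gives the same number at 20 kb with the longer lists cut to the length of the M0[CTR] list. IFNG is the lowest of the 4 at every offset from 0 to 50 kb on the left and the highest, at 584, on the right.

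The 317 loops were long and of low to middling count for their length. Their span ran from 10 to 1450 kb with a median of 390 kb (quartiles 190 and 670), against 160 kb for loops in all 5 lists. Loops of 500 kb or more were 39.4% of them and 8.01% of the loops in all 5 lists. The other loops of M0[CTR] matched in 1 list lay between, with median spans of 265 kb for M2[IL-4], 260 kb for pIL-4 + IFNG and 230 kb for M2p[pIL-4], and the 1911 loops of M0[CTR] alone had a median of 420 kb.

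The count in M0[CTR] ran from 6 to 179 contacts with a median of 16, and the matched IFNG loop had 6 to 178 contacts with a median of 17. Contacts fall steeply with distance, so each count was divided by the median count of loops of the same span in the same list, and this ratio is called strength. The median strength was 0.905 in M0[CTR] (range 0.465 to 1.44) and 0.909 in IFNG. For loops in all 5 lists the median M0[CTR] strength was 1.02. In M0[CTR], 103 of the 317 reached a strength of 1 or more, 58 did so in both lists, 133 (42.0%) lay at or under the 25th percentile for their span, and 1 lay above the 90th. The median strength of loops shared with 1 IL-4 list was 0.900 for M2[IL-4], 0.889 for pIL-4 + IFNG and 0.901 for M2p[pIL-4], so low strength was common to loops found in few lists.

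**Figure D2:**
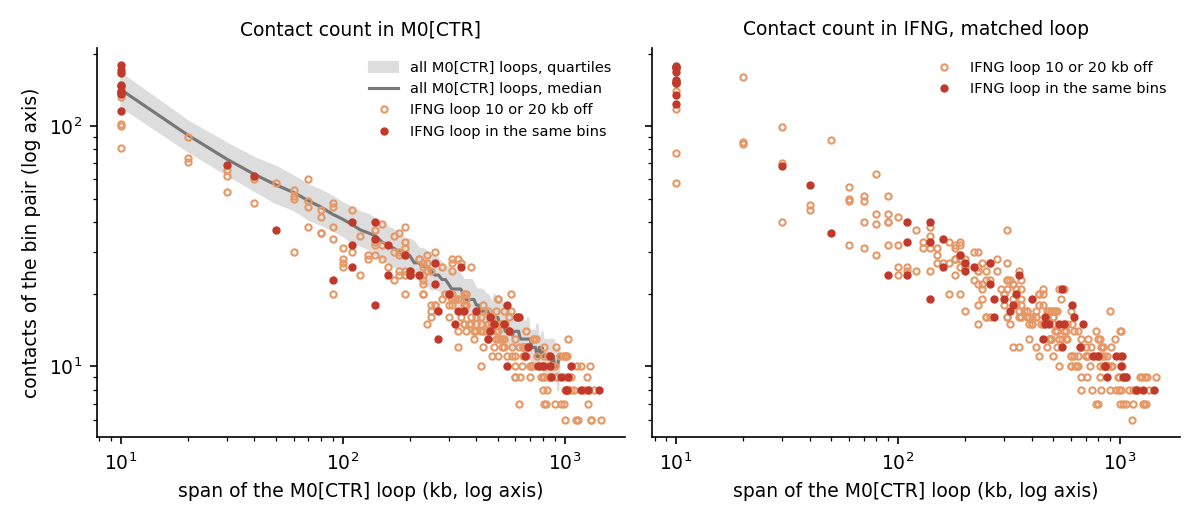
Each point is 1 of the 317 loops, plotted by span (log axis) against the contacts of its bin pair in M0[CTR] (left) and of its matched loop in IFNG (right), both on log axes. Filled points had the IFNG loop in the same bins, and the grey line and band are the median and quartiles of all M0[CTR] loops. The median strength of 0.905 is seen as points lying mostly on or under the line.

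The counts of the 2 groups without IL-4 were close. The IFNG count was the higher in 167 loops, the lower in 106 and equal in 44, with a median log2 ratio of IFNG over M0[CTR] of 0.06. The partner was in the same 2 bins for only 61 of the 317 loops (19.2%), 10 kb off for 133 (42.0%) and 20 kb off for 123 (38.8%). In loops present in all 5 lists, the IFNG partner was in the same bins in 55.9%. In the loops shared with 1 IL-4 list, the same bins were used in 20.4% (M2[IL-4]), 22.8% (M2p[pIL-4]) and 21.7% (pIL-4 + IFNG). Over the 61 loops in the same bins, the log2 ratio ran from -0.38 to 0.50, with IFNG higher in 35, lower in 11 and equal in 15.

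Many loops came near the distance set by the rule. The nearest loop of any IL-4 list was 30 kb away, the first distance the rule allows, for 152 of the 317 (47.9%), 40 kb away for 67 and 50 kb away for 24. Another 74 had none within 50 kb and 27 none within 100 kb. The 152 loops just inside the rule had 6 to 179 contacts with a median of 17.5, and the 998 M0[CTR] loops just outside it, with an IFNG partner and their nearest IL-4 loop 20 kb away, had 6 to 204 with a median of 21. On the other side of the rule, the 123 loops whose IFNG partner was 20 kb off had 6 to 139 contacts, and the 228 loops just outside, with the partner 30 kb off, had 7 to 198 with a median of 19.

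**Figure D3:**
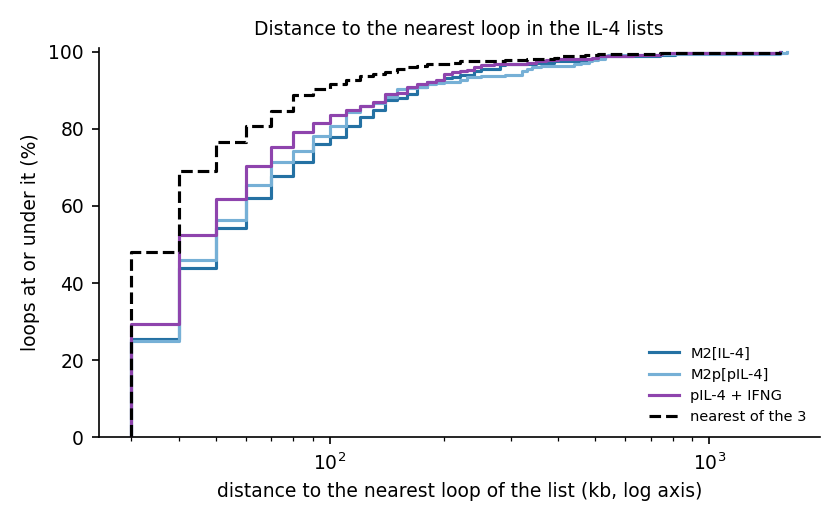
The curves give the share of the 317 loops (%) whose nearest loop in each IL-4 list, or in the nearest of the 3, lay at or under a given distance (kb, log axis). They start at 30 kb, which the rule sets, and the dashed curve reaches 47.9% there.

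The surroundings of these loops were not empty in the IL-4 lists. Within a ring of 30 to 100 kb around each loop, the calls summed over the 317 loops came to 2127 in M0[CTR], 2195 in IFNG, 2041 in M2[IL-4], 2479 in pIL-4 + IFNG and 2481 in M2p[pIL-4]. Most anchors also took part in other loops of at least 1 IL-4 list. Both anchor bins were so used for 169 loops, 1 of them for 125 and neither for 23. Within a single list both were used for 28.4% of the 317 in M2[IL-4], 33.1% in pIL-4 + IFNG and 33.75% in M2p[pIL-4]. Over all M0[CTR] loops, most of which were matched in these lists, the shares were 80.9%, 83.95% and 84.7%. In loops of M0[CTR] alone they were 19.9%, 23.0% and 23.8%. Set among the IL-4 loops of the same span, the M0[CTR] counts of the 317 loops had a median percentile of 28.6 in M2[IL-4], 31.1 in pIL-4 + IFNG and 29.7 in M2p[pIL-4]. These counts exceeded the median there in 64, 65 and 62 of the 317 loops. They exceeded the lowest count called in all but 14 loops for M2[IL-4], 12 for pIL-4 + IFNG and 17 for M2p[pIL-4]. In 57 loops (17.98%) the M0[CTR] count exceeded the median at that span in all 3 IL-4 lists, and in 28 the IFNG count did so as well.

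The loops were spread over the genome. They fell into 299 groups of touching bin pairs, of which 284 held 1 loop, 13 held 2, 1 held 3 and 1 held 4. With anchors linked over up to 100 kb they formed 250 loci. By chromosome, the share of M0[CTR] loops ran from 0.264% on chromosome 11 (13 of 4920) to 1.10% on chromosome 13 (27 loops).

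The group with most loops lay in Smchd1, which encodes a chromosomal protein of the SMC family that acts in X inactivation and gene silencing. At chr17:71330001-71460000, 5 loops that spanned 60 to 100 kb ran inside or just beyond the gene, and 4 of them touched. In M0[CTR] they had 28, 23, 34, 27 and 30 contacts, and their IFNG partners, of which some were shared, had 24, 24, 32, 32 and 32. The strengths in M0[CTR] lay between 0.535 and 0.791, and all 5 loops were thus weaker than the typical loop of their span. The nearest loop of each IL-4 list was 30 to 70 kb away. Inside the bins of the 5 loops, M0[CTR] had 5 calls, which were the loops themselves, IFNG had 2 and each IL-4 list 0. The rule itself set the 0 of each IL-4 list, since every bin pair there lay within the match distance of a chosen loop. Widening the bins by 50 kb gave 6 (M0[CTR]), 4 (IFNG), 1 (M2[IL-4]), 1 (M2p[pIL-4]) and 3 (pIL-4 + IFNG).

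The next group lay at Vwf, the gene of von Willebrand factor, a carrier protein of blood clotting. Here 3 touching loops of 250 to 260 kb joined the region between Plekhg6 and the tetraspanin gene Cd9 to the body of Vwf, with 18, 16 and 18 contacts in M0[CTR] and 16 at the IFNG partner. Another loop, nearer Cd9, had 50 contacts in M0[CTR] and 56 in IFNG. The region held many other loops, since the bins around all 4 gave 27 calls in M0[CTR], 29 in IFNG, 19 in M2[IL-4], 21 in pIL-4 + IFNG and 22 in M2p[pIL-4].

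The remaining groups held 2 loops each. From Anks1, an adaptor of Eph receptors, to Scube3, a secreted glycoprotein gene, 38 and 36 contacts were counted in M0[CTR] and 32 at the shared IFNG partner. Their strengths of 1.31 and 1.20 were above those of the typical loop, and the nearest loop was 90 kb away in M2[IL-4] but 30 to 40 kb away in the other IL-4 lists. Near Abca1, the cholesterol efflux transporter, 2 loops of 140 and 120 kb had 33 and 24 contacts in M0[CTR] and 25 in IFNG. That region was rich in calls, with 20 in M0[CTR], 7 in IFNG, 10 in M2[IL-4], 15 in pIL-4 + IFNG and 16 in M2p[pIL-4] within 50 kb, so IFNG had fewer calls there than any IL-4 list.

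From Foxp1, a transcription factor gene of monocyte differentiation, to the predicted gene Gm20696, 2 long loops of 560 and 570 kb had 16 and 20 contacts in M0[CTR] and 14 at the IFNG partner. Around Nfe2l3, 2 loops of 430 kb had 17 and 18 contacts in M0[CTR] and 20 in IFNG. The TSS of this gene lay inside the loops, 82.7 and 72.7 kb from their first anchors. The TSS nearest the second anchors, 232.5 and 222.5 kb away, was that of Skap2, an adaptor of Src family kinases in myeloid cells. The IL-4 lists had calls nearby in both regions, 30 to 40 kb away at Foxp1 and 40 to 100 kb away near Nfe2l3.

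In 2 groups, no list had a call in the ring of 30 to 100 kb around the loops, M0[CTR] and IFNG included, and the IL-4 lists had none nearer either. The first joined a bin beside Elmod1 to the body of Gldn, the gliomedin gene, at chr9:53990001-54340000. These 2 loops had 17 and 26 contacts in M0[CTR] and 18 and 20 in the same bins in IFNG, and the nearest loop was 210 and 220 kb away in M2[IL-4] and pIL-4 + IFNG and 440 kb away in M2p[pIL-4]. The stronger reached 1.24 times the typical count in M0[CTR] and 0.952 times in IFNG. The Poisson intervals of the 26 contacts (17.0 to 38.1) and the 17 contacts (9.90 to 27.2) are wide.

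The second such group joined the start of Rgs7bp, which encodes a partner of RGS7 family proteins, to the body of the same gene. The loops had 30 and 26 contacts in M0[CTR] and 26 at the shared IFNG partner, and the nearest IL-4 loop was 130 and 140 kb away in M2[IL-4] and pIL-4 + IFNG and 320 kb in M2p[pIL-4]. Their strength was 0.769 and 0.650, so this loop was weak in M0[CTR] as well. The IFNG partner was 10 kb off and ended in the bin beside the one that holds the start site. The promoter in the common anchor is shown because both M0[CTR] loops met there. It lies at chr13:105054931-105055180 on the reverse strand, is the RefSeq sequence of the 250 bases before the start site in GRCm38.p6, and holds 1 match to TTCNNNNGAA, the spacing of a STAT6 site, in capitals.
Rgs7bp promoter: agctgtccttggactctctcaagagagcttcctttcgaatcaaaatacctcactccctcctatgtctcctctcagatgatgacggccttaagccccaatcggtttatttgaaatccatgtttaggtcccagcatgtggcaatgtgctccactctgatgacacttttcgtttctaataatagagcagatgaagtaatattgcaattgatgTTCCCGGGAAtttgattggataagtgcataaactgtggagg

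RefSeq gave 150 promoters that started in an anchor of the 317 loops, and leaving out windows that overlapped another kept 121, of which 9 (7.44%, 3.96 to 13.5) held TTCNNNNGAA, against 6.05% of 28083 autosomal promoters counted alike. The interferon gamma activated spacing TTCNNNGAA was in 5.79% against 7.20%, and the PU.1 letters GAGGAAGT, searched on both strands, were in 3.31% against 2.46%. The interval around each share held the share of all promoters. Both palindromic spacings read the same on either strand, and the 2 can overlap.

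**Figure D4:**
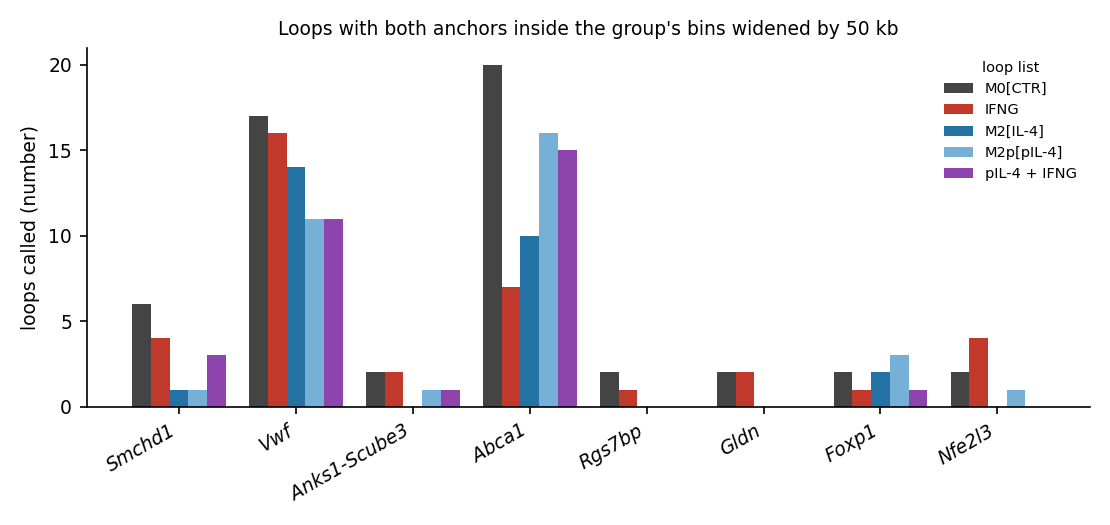
Bars give the number of loops called in each list with both anchors inside the bins of a touching group widened by 50 kb, for the 8 groups with most loops. Only the Rgs7bp and Gldn groups have 0 calls in all 3 IL-4 lists, and the 1 or 2 calls of M0[CTR] and IFNG there are the chosen loops and their partners, while the Vwf and Abca1 regions have 10 or more calls in each of them.

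Some single loops stood out by strength with the IFNG partner in the same bins. The strongest by the mean over both lists ran from the transcriptional regulator gene Aff3 to a bin near Lonrf2, over 550 kb, with 18 contacts in M0[CTR] and 21 in IFNG (strength 1.29 and 1.40). Among very short loops of 10 kb, those in Stx1a, a membrane fusion gene, had 179 and 178 contacts, in the spindle gene Numa1 near Il18bp 172 and 174, in the splicing helicase gene Dhx8 167 and 176, and upstream of Mgme1 148 and 168. These 4 had the highest M0[CTR] counts named here, and their Poisson intervals were narrow, as 153.7 to 207.2 for Stx1a. Counts are high at this span in general, and the median of all M0[CTR] loops of 10 kb was 142. Their nearest loop in an IL-4 list was 30 or 40 kb away, and a 10 kb loop joins neighbouring bins.

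A TSS lay at both ends in 9 of the 317 loops. That was 2.84%, against 4.54% of all M0[CTR] loops and 4.72% of loops in all 5 lists. The Wilson interval of the 317 held both of these shares, so the loops named next are examples only. From Crlf2, a subunit of the TSLP receptor, to the golgin gene Golga3, 16 contacts were counted in both lists over 620 kb. From Thumpd3 to Brpf1, a scaffold of histone acetyltransferases, 27 contacts were counted in both lists over 260 kb, and the nearest loop of the IL-4 lists was 80 to 110 kb away. Another of the loops named by strength ran from the synapsin gene Syn2 to Tmem40 over 610 kb. It had 16 contacts in M0[CTR] and 18 in IFNG, with both start sites within 10 kb of an anchor.

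Of the loops with no IL-4 list call within 100 kb, 5 were described for their strength: that at Gldn, one at Il15 given below, and 3 others. A loop from Paxbp1 to a bin near Ifngr2, the second chain of the IFNG receptor, had 17 contacts in both lists over 490 kb, and the nearest loop in every IL-4 list was 170 kb away. The start site of Ifngr2 was 17.1 kb from the anchor. A loop of 1420 kb that ended in Nedd1 had 8 contacts in both lists and its nearest IL-4 loop 1530 kb away, the farthest of all 317. A loop of 1230 kb on chromosome 9 had 8 and 9 contacts. For the last 2, 8 contacts (Poisson interval 3.45 to 15.8) were no more than the median of loops of their span.

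Loci with 4 or more of the loops were picked after the values were seen. Besides Smchd1 and Vwf, they were a region near the polysialyltransferase gene St8sia4 (counts of 6, 7, 7 and 13 in M0[CTR]), one around the corepressor gene Tle3 (16, 14, 18 and 19), and one from the activation marker gene Cd83 to Jarid2, a cofactor of polycomb repressive complex 2 (9, 12, 11 and 24). At Tle3 the same bins held 126 calls in M0[CTR], 170 in IFNG, 158 in M2[IL-4], 239 in pIL-4 + IFNG and 196 in M2p[pIL-4], so the 4 loops were a small part of a dense region.

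Genes near the loops were counted when an anchor lay within 100 kb of the transcription start site (TSS). This held for 1186 of the 20807 autosomal protein-coding genes (5.7%), the background for the gene lists. A TSS lay inside an anchor of 74 loops (23.3%, 19.02 to 28.3), which named 89 genes, against 30.8% of loops in all 5 lists. Anchors overlapped a protein-coding gene in 236 loops, with both ends in the same gene in 37, and 33 loops had no TSS within 100 kb of either end.

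Of 29 matched Toll-like receptor signalling genes, 1 was near: Nfkbiz, an inducible nuclear IκB protein, which had loops of 22 and 26 contacts in M0[CTR] and 22 and 24 in IFNG. Of 29 inflammatory cytokines and mediators, 2 were near. Il15, a cytokine that sustains NK and memory T cells, had its TSS in the anchor of a 730 kb loop with 13 contacts in M0[CTR]. The IFNG partner, with 10 contacts, was 20 kb off, and its anchor bins did not hold that TSS. The nearest loop was 290 kb away in M2[IL-4], 370 kb in pIL-4 + IFNG and 360 kb in M2p[pIL-4]. Il1b, the interleukin-1β gene, had an anchor 88.9 kb from its TSS, of a loop with 27 and 23 contacts.

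Of 29 IL-4-induced genes, 2 were near (6.90%, 1.91 to 22.0). Cish, a feedback inhibitor of cytokine receptor signalling, had its TSS in the anchor of a 330 kb loop from Dock3 with 19 contacts in M0[CTR] and 19 in IFNG, and the nearest loop was 30 kb away in M2[IL-4] and 60 kb in the 2 other IL-4 lists. Klf4, a transcription factor of alternative activation, lay 22.5 kb from an anchor of a loop with 10 and 8 contacts. Around Klf4 the loop anchors within 100 kb numbered 66 in M0[CTR], 92 in IFNG, 117 in M2[IL-4], 107 in pIL-4 + IFNG and 106 in M2p[pIL-4]. The lists with IL-4 had more of them near this gene, with the most in M2[IL-4]. In all, the lists held 53273 autosomal loops (M0[CTR]), 54869 (IFNG), 58117 (M2[IL-4]), 66827 (pIL-4 + IFNG) and 67532 (M2p[pIL-4]). The numbers of anchors were not corrected for list length, and the cause of the difference was not tested. Of 30 IFNG-induced genes, none was near, and the Wilson interval ran up to 11.35%, and of 29 lysosome and vacuolar ATPase genes none was near, with an interval up to 11.7%.

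Macrophage lineage genes gave 4 of 30 (13.3%, 5.31 to 29.7). These were Ptprc (CD45), the Src family kinase gene Lyn, Laptm5, a lysosomal membrane protein of blood cells, and the transcription factor gene Maf, each near 1 loop, with 15, 20, 11 and 10 contacts in M0[CTR]. The AP-1 and immediate early list gave 3 of 30, with Jun near 2 loops of 12 and 14 contacts, Batf near 1 of 15 and Maff near a 10 kb loop of 102 contacts in M0[CTR]. The matched IFNG loop of the latter, 20 kb off, had 174.

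Lymphocyte genes, a list for another cell type, gave 4 of 30 as well, the same share as macrophage lineage genes. Cd4 had its TSS in an anchor of a 140 kb loop to Zfp384 with 34 contacts in M0[CTR] and 40 in the same bins in IFNG. Cd22, Tbx21 and Il7r lay 9.66, 85.3 and 80.2 kb from an anchor. Among housekeeping genes 2 of 30 were near. The interval of each of the 9 lists held the background of 5.7%, and a difference from it was not detectable at this number of loops.

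**Figure D5:**
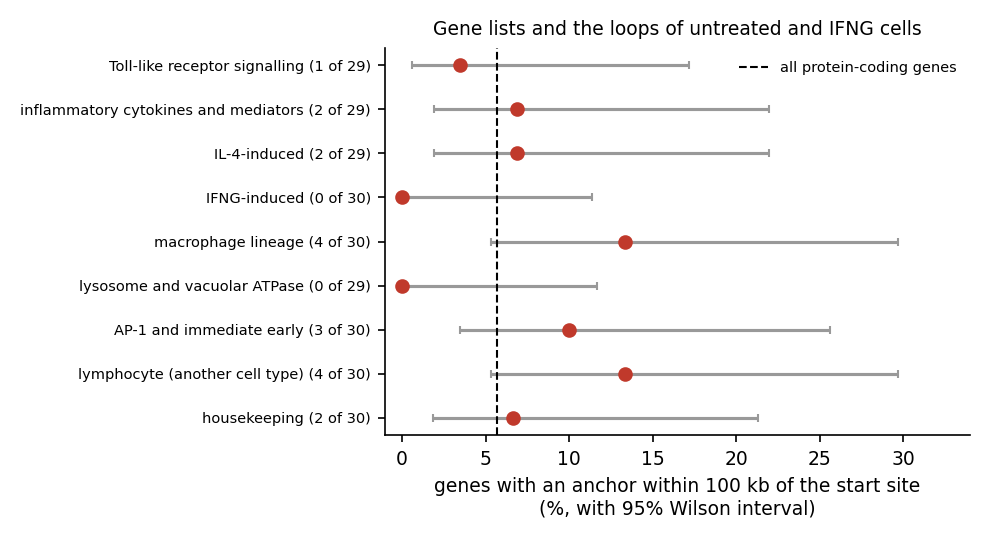
Points are the share of each list's genes (%) with an anchor of the 317 loops within 100 kb of the TSS, bars are Wilson 95% intervals, and the dashed line is the 5.7% of all autosomal protein-coding genes. All 9 intervals cross the line.

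The median GC content of the anchor bins was 43.7%, against 44.4% to 44.6% in loops shared with 1 IL-4 list, 43.4% in loops of M0[CTR] alone and 46.5% in loops of all 5 lists. A CTCF consensus match with up to 1 mismatch was in both anchors of 168 of the 317 loops (interval of the share 47.5 to 58.4%), against 71.0% in loops of all 5 lists and 50.9% in those of M0[CTR] alone. Such a match is common, since 60.5% of all autosomal bins hold one. Convergent pairs of this looser match were at 25.6% (21.1 to 30.6) of the 317 loops, 28.05% of those in M0[CTR] alone and 46.5% of those in all 5 lists. In the loops shared with 1 IL-4 list the share was 30.8% for M2[IL-4], 33.7% for pIL-4 + IFNG and 35.0% for M2p[pIL-4]. With all spans pooled, these shares all lay above the interval of the 317. At 500 kb or more the chosen loops had 18.4% (12.59 to 26.1). The shares there of 20.97% (M2[IL-4]), 20.31% (pIL-4 + IFNG) and 21.13% (M2p[pIL-4]) lay inside that interval. At 30 to 490 kb the chosen loops had 29.31% (23.05 to 36.46). That interval held the 35.6% of M2[IL-4] but not the 38.24% of pIL-4 + IFNG or the 38.27% of M2p[pIL-4]. At 10 to 20 kb the interval of the chosen loops held the share of each set.

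Loops of 500 kb or more held fewest matches in every set, so the sets were also compared within spans. Among loops of 500 kb or more, both anchors held a match in 40.8% (32.6 to 49.6) of the 125 members and in 58.2% (56.6 to 59.9) of loops in all 5 lists, against 38.9% of those in M0[CTR] alone. Among loops of 30 to 490 kb the shares were 58.6% (51.2 to 65.7), 71.9% and 58.7%. In the 18 members of 10 to 20 kb the share was the higher one, at 83.3% (60.8 to 94.2) against 75.8% in all 5 lists. An anchor TSS was at 16.8% of the long members and 14.2% of the long loops in all 5 lists, and at 26.4% and 30.9% in the middle class. Matches in both anchors were thus fewer than in loops of all 5 lists in the 2 longer classes and not in the shortest, where the interval was wide. In the 2 longer classes the TSS shares of loops in all 5 lists lay within the members' intervals. These intervals cover counting error only, and no test between groups was possible.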

How the data were processed

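Hi-C of BMDMs was made by the authors with MboI digestion and Tn5 libraries. Per the methods, reads were processed with nf-core/hic, HiC-Pro and Bowtie2 on mm10 (GRCm38). The submitters' processing notes also name FastQC, Juicer and HOMER. The deposited lists give, for 10 kb bin pairs, raw whole-number contact counts. The methods describe HICCUPS loops, called in wider bins at a false discovery rate threshold, but the lists hold 10 kb bins, no false discovery rate and no expected contacts, so it is unsure whether that calling made them. Each list stands for 1 group, and the replicates appear to be merged. The precision of a count is given as a Poisson interval and that of a share as a Wilson 95% interval, both for counting error only.

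Loops matched when both anchors were at most 20 kb (2 bins) off. Strength was each count divided by its list's median for that span, with spans pooled to at least 50 loops. Protein-coding genes came from GENCODE M21, with a window of 100 kb around the TSS. The CTCF consensus was searched on both strands with up to 1 mismatch. The work was done in Python 3.11.15 with pandas 2.3.3, numpy 2.4.6, matplotlib 3.10.9 and scipy 1.17.1. The matching was tested on simulated data.

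Named were the 8 touching groups with most loops, the 8 strongest with the IFNG loop in the same bins, loops with a listed gene's TSS in an anchor, the 5 strongest with every IL-4 list over 100 kb away, and listed genes within 100 kb. The loops and gene lists were chosen with earlier results of these data known. Alternatives were the match distance, which IL-4 lists must lack the loop, list length, loops under 50 kb, the IFNG list as base, the X chromosome, touching loops, the consensus, the annotation and the gene window.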

Additional observations from a re-analysis of the deposited data

Results flagged for a closer look

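The X chromosome was outside the comparison, and 6 of its 150 M0[CTR] loops met the same rule (4.0%, Wilson 95% interval 1.85 to 8.45). They are given because these data were not otherwise used and 6 is above the 3 counts that a count of 0 allows. The rule also finds loops on the autosomes (0.595%), so 0 was not a baseline, and the 6 are a description. The counts were 45, 35, 10, 19, 11 and 12 contacts in M0[CTR], with 38, 38, 13, 22, 12 and 13 in the matched IFNG loop. The first 2 adjoin, and anchors overlapped Dock11 and P2ry10b in 1 loop each. The X lists were short, at 142 to 195 loops, and the share was not compared with the autosomes by a test.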

How the results depend on the processing

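No paired analysis was possible because the replicates of a group shared 1 list, and for the same reason none could be left out. Of 115 alternative values over 17 results, 49 stayed within 1.5 times the count or within the 95% interval of the share or median, and 66 moved, for which the cause was not tested. In the order loops, touching groups and share (%), matching gave 1846, 1767 and 3.465 in the same bins, 606, 567 and 1.138 at 10 kb, and 157, 152 and 0.2947 at 50 kb, and the share was 0.458 at 30 kb. Without the M2[IL-4] list among those that must lack the loop the values were 532, 492 and 0.9986, without M2p[pIL-4] 625, 568 and 1.173, and without pIL-4 + IFNG 694, 639 and 1.303. Lists of equal length gave 584, 537 and 1.096, with median strength 0.8333 and span 280 kb. Chosen after seeing the data, 61 loops had the IFNG loop in the same bins, 74 had no IL-4 loop within 50 kb, and 58 had a strength of 1 or more in both lists. Median strength was 0.9429 in the same bins, and median span 230, 310, 460 and 500 kb at 0, 10, 30 and 50 kb. CTCF in both anchors was 63.27% in the same bins, 47.13% at 50 kb and 3.47% without a mismatch, and convergent pairs were 37.7% in the same bins, 31.35% at 10 kb and 2.524% without a mismatch. The share with a TSS was 30.57% at 50 kb and 41.01% with all annotated genes.

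The share of all genes near a loop moved with the gene window, to 1.93% within 25 kb and 11.1% within 250 kb for the same 317 loops, and with the matching, to 30.2% for the 1846 loops in the same bins and 2.61% for the 157 at 50 kb. Within 25 kb, genes near were 0 of the Toll-like receptor list, 1 of the cytokines, 0 of macrophage lineage, 0 of AP-1, 2 of lymphocyte and 1 of housekeeping. Within 250 kb they were 2 (Toll-like receptor), 5 (IL-4-induced), 2 (IFNG-induced), 2 (lysosome) and 7 (AP-1). Matching in the same bins gave 15 (Toll-like receptor), 14 (cytokines), 16 (IL-4-induced), 19 (IFNG-induced), 21 (macrophage lineage), 12 (lysosome), 19 (AP-1), 13 (lymphocyte) and 18 (housekeeping), and matching at 50 kb gave 0, 1, 0, 1 (macrophage lineage), 2 (lymphocyte) and 0 (housekeeping) in the lists that moved.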
